A study of Mus musculus with 22 samples.

Results

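Skeletal muscle stem cells (satellite cells) taken after injury at ZT16 were compared with those taken after injury at ZT4, over both days of collection at once. ZT, zeitgeber time, counts hours from lights on, so ZT16 falls in the dark, active phase of a mouse and ZT4 in its resting phase. Of the 22 libraries in the series, 16 were used: 4 from injury at ZT16 and 4 from injury at ZT4 on day 1 after injury, and 4 and 4 again on day 3. Pooled, this sets 8 libraries from injury at ZT16 against 8 from injury at ZT4, with day kept as a block, and keeps differences whose sign was the same on both days. All mice carried the Pax7-zsgreen reporter, in which the green protein ZsGreen marks cells that express Pax7, and no other allele was named. The injury was an injection of cardiotoxin, a snake venom toxin that destroys myofibers and spares satellite cells. Hindlimb satellite cells were taken from mice perfused with 0.5% paraformaldehyde, a light fixation in place, and were selected as ZsGreen-positive. The RNA was recovered with a kit for fixed tissue and amplified as full-length cDNA without strand information. The 6 uninjured libraries, 3 at ZT16 and 3 at ZT4, are given beside the results and shared no library with them. The labels tie ZT to the hour of injury, do not give the hour of collection, and do not say whether each library is a separate mouse. The p-values therefore measure the spread between libraries, which may be in part technical, and injury hour and collection hour cannot be told apart.

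The circadian clock is a transcription loop present in nearly every cell. CLOCK and ARNTL (BMAL1) bind E-box sequences and switch on Per, Cry, Nr1d1, Nr1d2 and Dbp, whose products then repress the loop. Satellite cells have such a clock, and in injured muscle they divide, release chemokines that attract neutrophils and monocytes, and later differentiate or return to quiescence. The hour at which muscle is injured could act on any of these steps, and day 1 and day 3 sample the inflammatory and the proliferative stages of repair.

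The libraries held 6302528 to 9751536 expected counts and 17006 to 23267 detected genes, of 43430 genes in the files. A total of 13952 genes passed the filter on low counts and were tested. Levels are given as CPM, counts scaled to a fixed library total after correction for composition. The 10 satellite cell and myoblast markers summed to between 4062 and 5328 CPM in every library. Transcripts of other cells were present too: macrophage markers summed to between 328.8 and 4861 CPM. The 10 T, B and NK cell markers reached at most 6.57 CPM in sum, and none passed the filter. The library of day 1, ZT4, replicate 3 stood apart, with the highest summed neutrophil markers (317.2 CPM) and macrophage markers (4861 CPM) of all 16. Results on immune genes are therefore also given without it.

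Pooled over both days, 2 of 13952 genes (0.0143%) passed an adjusted p of 0.05 in edgeR's quasi-likelihood test with Benjamini-Hochberg adjustment: Banp rose and Kpna1 fell, 1 gene (0.00717%) in each direction. Both kept their sign on day 1 and on day 3. At an unadjusted p under 0.05, 1505 genes differed (10.8%), 660 higher and 845 lower at ZT16, and 1468 of these (10.5%) had the same sign on both days, 649 higher (4.65%) and 819 lower (5.87%). At an adjusted p under 0.1 there were 32 genes (0.229%), 31 of them with the same sign on both days. The pooled test and both signs come from the same libraries, so the shared sign is a description and not a second test. Over all genes tested, the log2 differences of day 1 and day 3 correlated at 0.1 (Pearson) and 0.11 (Spearman). On the same libraries DESeq2 called 93 genes and limma-voom called 25, with 23 in common, beside the 2 of edgeR. The count thus depended strongly on the choice of tool. For any list of genes below, the shares of all genes tested to read it against are 4.73% higher and 6.06% lower at an unadjusted p under 0.05, and 3697 genes (26.5%) higher and 3698 (26.5%) lower on both days. The lists were written with earlier results of these data known. Their counts beside these shares are therefore a description and not a test. Leaving out single libraries gave between 0 genes, without day 3 ZT4 replicate 3, and 24 genes, without day 1 ZT16 replicate 1.

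Banp encodes a nuclear protein that binds DNA at unmethylated CpG-rich promoters. Banp had 41.8, 33.6, 43.6 and 51.8 CPM in the day 1 libraries from injury at ZT16, against 26.5, 30.7, 21.8 and 24.3 CPM in those from injury at ZT4. On day 3 Banp had 31.2, 33.1, 34.5 and 30.9 CPM after injury at ZT16, against 24.9, 21.3, 19.3 and 21.0 CPM after injury at ZT4. Every ZT16 library was above every ZT4 library of its day. Banp was higher at ZT16 by 0.66 ± 0.098 on the log2 scale (± SE, 8 against 8 libraries; edgeR adjusted p = 0.0127), with 0.72 on day 1 and 0.58 on day 3. In uninjured muscle its difference was 0.04 (edgeR adjusted p = 0.904). The gene lies on chromosome 8, bases 121949750 to 122029258 of GRCm38, on the plus strand. It sits inside the span of Gm20388, a read-through gene on the same strand with which it shares 0 exon bases, and Gm20388 had a log2 difference of 0.04 ± 0.24. Of the 6632 exon bases of Banp, 252 overlap Gm27011 on the opposite strand, which did not pass the filter; without strand information, reads there cannot be told apart. All 8 Banp transcripts that averaged 1 CPM or more in a group were higher at ZT16 on both days. The call was lost without the day 3, ZT4, replicate 3 library (adjusted p = 0.0556), on the log2(TPM + 1) scale with limma-trend (adjusted p = 0.0659) and with the replicate number as a block (adjusted p = 0.0562).

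Kpna1 encodes an importin alpha, an adaptor that carries proteins with a nuclear localisation signal into the nucleus. Kpna1 had 123, 118, 125 and 126 CPM on day 1 after injury at ZT16, against 143, 141, 151 and 149 CPM after injury at ZT4. Kpna1 on day 3 had 132, 105, 112 and 125 CPM after injury at ZT16, against 158, 149, 156 and 152 CPM after injury at ZT4. The ranges did not overlap on either day. Kpna1 fell by 0.31 ± 0.053 on the log2 scale (edgeR adjusted p = 0.0418), with −0.25 on day 1 and −0.38 on day 3, whereas in uninjured muscle it was 0.38 higher at ZT16 (edgeR adjusted p = 0.0585). It lies on chromosome 16, bases 35978750 to 36037131 of GRCm38, plus strand. Its call was lost when any one of 10 libraries was left out (adjusted p between 0.0549 and 0.110): day 1 ZT16 replicates 2 and 3, day 1 ZT4 replicate 4, day 3 ZT16 replicates 2, 3 and 4, and each of the day 3 ZT4 libraries. Kpna1 was also not called with all 22 libraries in the fit (adjusted p = 0.347), with limma-trend on log2(TPM + 1) (adjusted p = 0.106) or with the replicate block (adjusted p = 0.0562).

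**Figure D1:**
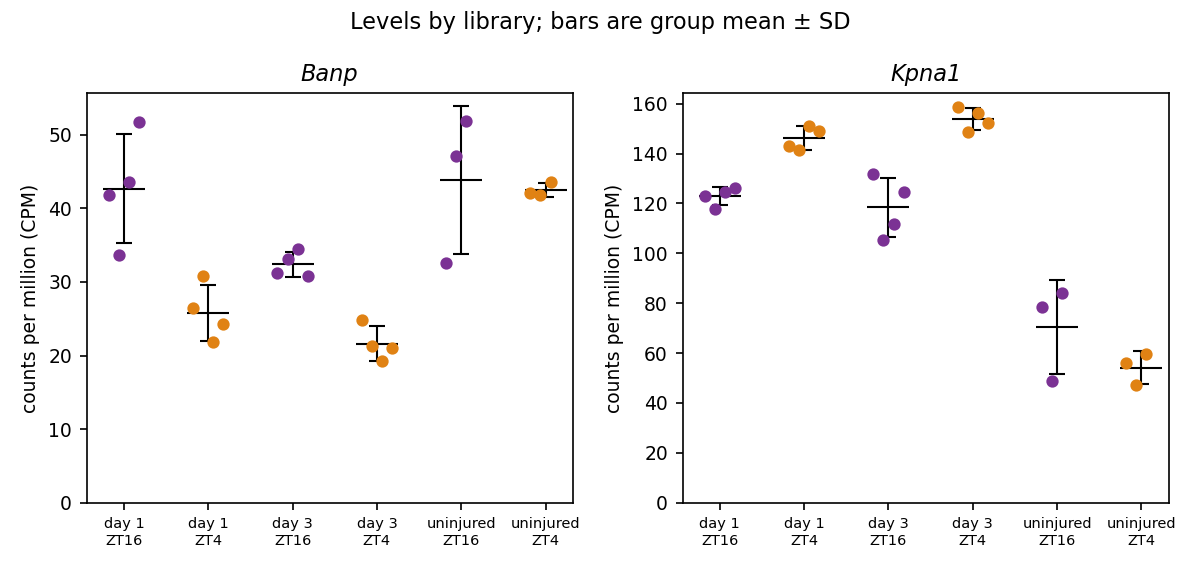
CPM of Banp and Kpna1 in each library (points) with group mean and SD (bars), for injury at ZT16 (purple) and ZT4 (orange) on day 1 and day 3, and for uninjured muscle. After injury the ranges of the ZT16 and ZT4 libraries do not overlap on either day, and in uninjured muscle they do.

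Since fewer than 20 genes passed, the 12 higher and 12 lower named genes with the smallest p are described whether or not they passed, among genes with at least 5 CPM and the same sign on both days. All but Banp and Kpna1 had an adjusted p above 0.05 in edgeR. Across the whole table, the ZT16 and ZT4 ranges were separate in the same direction on both days for 31 genes (0.222%), 11 higher and 20 lower, and in opposite directions for 11 (0.0788%).

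Among the genes with higher levels at ZT16, a kinetochore and centromere pair had separate ranges on both days. Sgo1, shugoshin, which protects cohesion at centromeres, had 32.2, 47.5, 43.9 and 37.6 CPM on day 1 after injury at ZT16, against 20.1, 31.5, 27.9 and 25.5 CPM after injury at ZT4. On day 3 Sgo1 had 52.8, 52.9, 50.8 and 59.2 CPM at ZT16, against 42.6, 45.2, 39.8 and 41.0 CPM at ZT4. Its lowest ZT16 value was above the highest ZT4 value on each day, and the log2 difference was 0.48 ± 0.097 (edgeR adjusted p = 0.0659). Spc24, a subunit of the NDC80 kinetochore complex, was 0.31 ± 0.070 higher (edgeR adjusted p = 0.0998), with 0.46 on day 1 and 0.16 on day 3. Ncoa5, a nuclear receptor coactivator, also had separate ranges on both days: 63.3, 65.0, 69.4 and 65.1 CPM at ZT16 and 56.1, 58.7, 48.5 and 49.6 CPM at ZT4 on day 1, and 43.3, 46.2, 55.7 and 43.4 CPM at ZT16 and 36.9, 34.9, 37.5 and 40.8 CPM at ZT4 on day 3. Its log2 difference was 0.32 ± 0.071 (edgeR adjusted p = 0.0984).

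Sox8, an HMG-box transcription factor found in satellite cells, which shares 329 of 3118 exon bases with an antisense gene, had 31.6, 55.5, 44.2 and 37.9 CPM on day 1 at ZT16, against 26.7, 27.0, 29.1 and 22.8 CPM at ZT4. Its day 3 values were 20.3, 34.8, 42.8 and 35.4 CPM at ZT16, against 15.96, 25.5, 14.5 and 21.6 CPM at ZT4. The groups were separate on day 1 and overlapped on day 3 through 1 ZT16 library, and the log2 difference was 0.72 ± 0.15 (edgeR adjusted p = 0.0685). In uninjured muscle Sox8 had the opposite sign, −0.68 (edgeR adjusted p = 0.0483). Wnt10a, a secreted Wnt ligand, was low on day 1, with 3.44, 3.32, 2.25 and 4.17 CPM at ZT16 against 1.75, 1.40, 1.07 and 1.22 CPM at ZT4. On day 3 it had 33.6, 30.8, 21.4 and 25.0 CPM at ZT16 against 19.4, 21.9, 15.6 and 17.4 CPM at ZT4, and the log2 difference over both days was 0.79 ± 0.17 (edgeR adjusted p = 0.0746). Wnt10a was thus separate on day 1, and a single pair of libraries overlapped on day 3. Mamstr, a coactivator of MEF2 factors, was 0.37 ± 0.089 higher (edgeR adjusted p = 0.123), separate on day 3 with 136 to 176 CPM at ZT16 and 117 to 123 CPM at ZT4, and it too had the opposite sign in uninjured muscle, −0.59 (edgeR adjusted p = 0.0179).

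The remaining higher genes differed by 0.35 to 0.58 on the log2 scale. Fam19a5 (Tafa5), which encodes a secreted chemokine-like protein, was 0.47 ± 0.088 higher (edgeR adjusted p = 0.0659), with 81.5, 90.3, 81.2 and 83.9 CPM on day 3 at ZT16 against 53.5, 53.8, 65.2 and 66.7 CPM at ZT4. It was also higher at ZT16 in uninjured muscle, by 1.23 (edgeR adjusted p = 0.0156). Glod4, a glyoxalase-domain protein, was 0.35 ± 0.067 higher (edgeR adjusted p = 0.0659), but 3353 of its 6005 annotated exon bases are shared with Gemin4 on the same strand, which was 0.46 ± 0.22 lower, and 2875 with Fam57a on the opposite strand, so how the reads were split is uncertain. In uninjured muscle Glod4 differed by −0.60 (edgeR adjusted p = 0.00467). Mgme1, an exonuclease of mitochondrial DNA, was 0.38 ± 0.090 higher. Arhgef39 was 0.58 ± 0.14 higher, and Snhg5, a non-coding host of small nucleolar RNAs, 0.49 ± 0.12 higher. Each of the last 3 had separate ranges on day 3, and their adjusted p lay between 0.120 and 0.128 in edgeR.

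Of the genes with lower levels at ZT16, Plin2, the coat protein of lipid droplets, had 188, 161, 142 and 141 CPM on day 1 after injury at ZT16, against 214, 222, 380 and 234 CPM after injury at ZT4. The day 3 values were 122, 117, 105 and 107 CPM at ZT16, against 154, 151, 147 and 146 CPM at ZT4. The ranges were separate on both days, and Plin2 was 0.57 ± 0.11 lower on the log2 scale (edgeR adjusted p = 0.0659). Angptl4, a secreted inhibitor of lipoprotein lipase, had 195, 156, 220 and 213 CPM on day 1 at ZT16 against 214, 218, 322 and 270 CPM at ZT4. On day 3 Angptl4 had 122, 147, 107 and 104 CPM at ZT16 against 195, 194, 238 and 196 CPM at ZT4. Only day 3 was separate, and the log2 difference was −0.58 ± 0.11 (edgeR adjusted p = 0.0659). In uninjured muscle Angptl4 was far lower at ZT16, with a log2 difference of −3.85 (edgeR adjusted p = 0.000521), while Plin2 differed by −0.26 (edgeR adjusted p = 0.388). Plin2 and Angptl4 were 2 of the 4 genes that limma-trend called on the log2(TPM + 1) scale. Without the day 1, ZT4, replicate 3 library, which held the 380 CPM, Plin2 differed by −0.45 and passed the threshold (edgeR adjusted p = 0.00546).

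Myo1e, Chd7, Uggt2 and Slc19a2 were also in the lower set, with log2 differences between −0.28 and −0.58. Myo1e, a membrane-linked myosin, had 73.4, 70.2, 77.2 and 71.3 CPM on day 1 at ZT16 against 82.4, 82.9, 93.9 and 83.6 CPM at ZT4. Day 3 gave 87.6, 76.0, 88.8 and 84.2 CPM at ZT16 against 103, 95.6, 106 and 116 CPM at ZT4. These ranges were separate on both days at a log2 difference of −0.28 ± 0.058 (edgeR adjusted p = 0.0746). Chd7, a chromatin remodeller, was 0.32 ± 0.066 lower and Uggt2, a homologue of the glucosyltransferase that senses misfolded glycoproteins, was 0.58 ± 0.12 lower, both also separate on both days (edgeR adjusted p = 0.0685 and 0.0746). Slc19a2, a thiamine transporter, was 0.43 ± 0.088 lower after injury (edgeR adjusted p = 0.0685), separate on day 3. In uninjured muscle Slc19a2 was 1.70 higher at ZT16 (edgeR adjusted p = 4.14e-06).

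**Figure D2:**
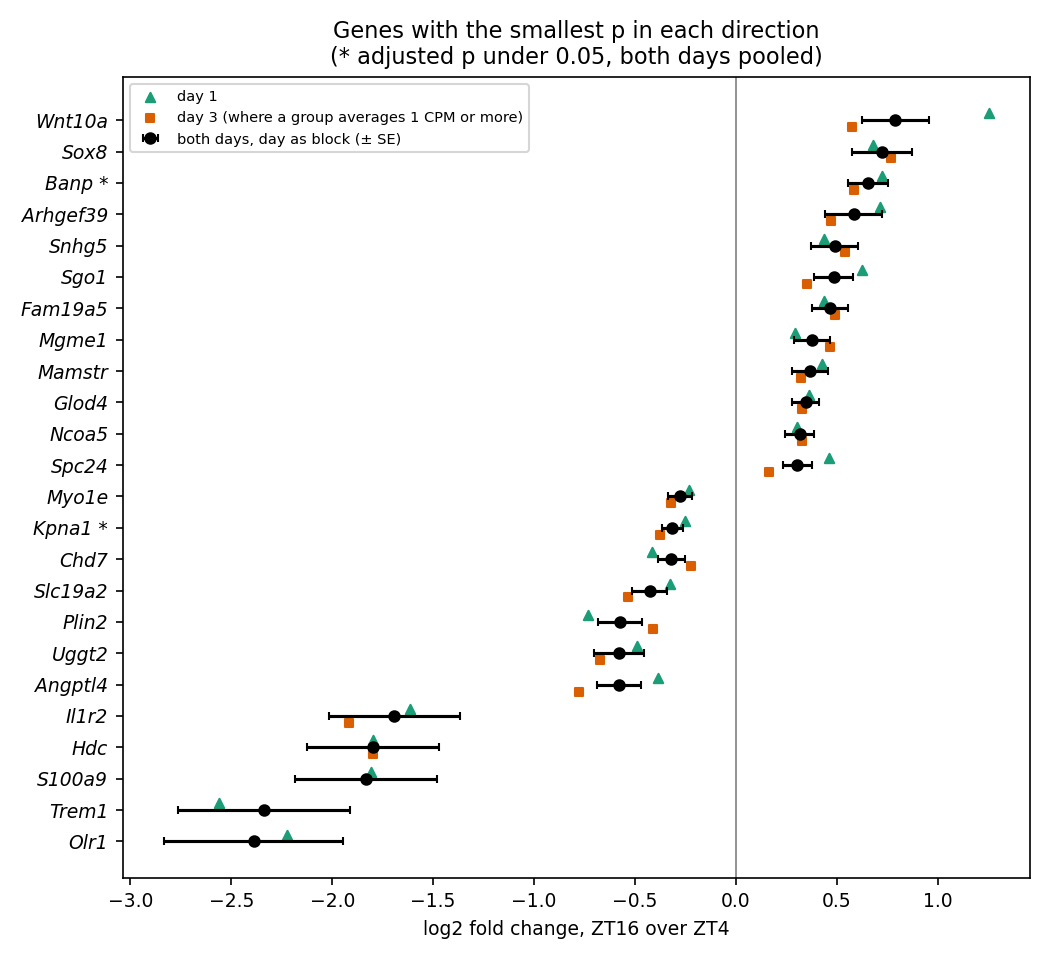
Log2 fold change, ZT16 over ZT4, of the 24 named genes pooled over both days (black, ± SE) and on day 1 (triangles) and day 3 (squares) alone. Day 3 is drawn only where a day 3 group averages 1 CPM or more, so Olr1, Trem1 and S100a9 have no square. The members lie on the same side of 0 on both days by the rule that chose them; the myeloid and mast cell genes Il1r2, Hdc, S100a9, Trem1 and Olr1 have the largest size and the widest errors.

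Trem1, a receptor that amplifies inflammatory signalling in neutrophils and monocytes, had 7.04, 2.94, 5.12 and 2.96 CPM on day 1 at ZT16, against 26.4, 19.7, 41.6 and 18.8 CPM at ZT4. It was one of 5 genes (0.0358%) that passed on day 1 alone, at −2.56 ± 0.43 on the log2 scale (edgeR adjusted p = 0.0428). On day 3 Trem1 was at most 0.782 CPM in either group, so its difference rests on day 1. Olr1, the lectin-like receptor for oxidised LDL, had 2.99, 2.30, 2.75 and 0.672 CPM on day 1 at ZT16 against 5.65, 10.3, 14.1 and 10.9 CPM at ZT4, separate. On day 3 it was at 0 in all 4 ZT16 libraries and at most 0.969 CPM at ZT4. Il1r2, the decoy receptor that binds interleukin 1 without signalling, was separate on both days. It had 5.24, 4.98, 7.24 and 10.4 CPM on day 1 at ZT16 against 16.02, 12.02, 44.5 and 13.0 CPM at ZT4, and 0.718, 0.464, 0.317 and 0.150 CPM on day 3 at ZT16 against 0.782, 2.63, 1.92 and 1.44 CPM at ZT4. Pooled, Il1r2 differed by −1.69 ± 0.32 (edgeR adjusted p = 0.0659). Without the day 1, ZT4, replicate 3 library the pooled differences were −1.28 for Il1r2, −2.01 for Trem1 and −2.27 for Olr1, beside −1.69, −2.34 and −2.39 with it.

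Among the neutrophil markers, 6 of 10 passed the filter, and all 6 were lower at ZT16 when pooled, 5 of them on both days. Of these, 5 had an unadjusted p under 0.05, against 6.06% of all genes tested that were lower at that level. None passed after adjustment in edgeR or limma-voom, and DESeq2 called 3: S100a9, Cxcr2 and Mmp9. Their median log2 difference was −1.31, with −1.46 on day 1 and −0.67 on day 3, beside 0.00 over all genes tested. S100a9, a subunit of calprotectin, had 12.1, 11.8, 5.12 and 15.9 CPM on day 1 at ZT16 against 35.3, 39.2, 68.3 and 14.4 CPM at ZT4, and was at or below 0.469 CPM in every day 3 library. Mmp9, gelatinase B, which macrophages also make, had 6.16, 6.97, 5.38 and 7.34 CPM on day 3 at ZT16 against 11.3, 12.04, 11.8 and 13.2 CPM at ZT4, separate. On day 1 its groups overlapped. Without the day 1, ZT4, replicate 3 library all 6 markers were still lower and 5 had an unadjusted p under 0.05, with S100a9 at −1.46, Cxcr2 at −1.54 and Mmp9 at −0.90, beside −1.83, −1.95 and −1.17 with it. The summed markers ranged from 31.0 to 87.8 CPM on day 1 at ZT16 against 86.7 to 317.2 CPM at ZT4. The day 3 sums were 7.44 to 11.8 CPM at ZT16 against 15.9 to 18.3 CPM at ZT4. Mmp9 made up most of these day 3 sums, with means of 6.46 of 9.92 CPM at ZT16 and 12.1 of 16.8 CPM at ZT4. Of the 4 markers that did not pass the filter, Ly6g and Camp were at 0 in 15 of 16 libraries each. Retnlg was at 0 in 8 libraries and Ltf in 7, with at most 2.03 and 1.72 CPM in the others. In bulk RNA, fewer cells of a type and less RNA per cell cannot be told apart, and the part of admixed cells in the lower myeloid genes was not tested.

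Mast cell markers were lower at ZT16 on both days: 9 of 10 passed the filter, all 9 were lower on both days, and 6 had an unadjusted p under 0.05, against 6.06% of all genes tested that were lower at that level and 26.5% that were lower on both days. None passed in edgeR, while DESeq2 called 4 and limma-voom 3. Their median log2 difference was −1.13, with −1.59 on day 1 and −0.51 on day 3. Hdc, histidine decarboxylase, which makes histamine, had 17.1, 6.90, 12.1 and 2.82 CPM on day 1 at ZT16 against 23.7, 31.8, 48.0 and 31.5 CPM at ZT4. On day 3 Hdc had 1.74, 1.63, 1.43 and 0.300 CPM at ZT16 against 6.73, 2.63, 3.10 and 6.03 CPM at ZT4. Both days were separate, with log2 differences of −1.80 on each (pooled −1.80 ± 0.33; edgeR adjusted p = 0.0659). Tpsab1, a tryptase, had 3.74, 0.511, 4.12 and 1.21 CPM on day 1 at ZT16 against 13.1, 11.4, 13.0 and 12.4 CPM at ZT4, and differed by −1.83 ± 0.38 over both days (edgeR adjusted p = 0.0746). Cpa3, mast cell carboxypeptidase, differed by −1.13 ± 0.28 (edgeR adjusted p = 0.158), separate on day 1 and overlapping on day 3, where it had 4.75 to 7.78 CPM at ZT16 and 3.84 to 14.3 CPM at ZT4. The summed markers did not overlap on day 1, with 63.3 to 129 CPM at ZT16 and 202 to 292 CPM at ZT4, and overlapped on day 3, with 67.7 to 98.7 CPM at ZT16 and 82.8 to 120.5 CPM at ZT4. Without the day 1, ZT4, replicate 3 library, more genes passed the filter, 14181 beside 13952. Among them was Ms4a2, which reached at most 2.29 CPM and was at 0 in 5 of the 16 libraries. All 10 markers were then tested, were lower and had an unadjusted p under 0.05, with Hdc at −1.66, Tpsab1 at −1.77 and Cpa3 at −1.15.

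Of the macrophage and monocyte markers, all 18 were lower when pooled, 13 on both days, but only Itgam and Cd52 reached an unadjusted p under 0.05 (6.06% of all genes did on the lower side), and the median log2 difference was −0.38. None passed in edgeR, DESeq2 or limma-voom, and edgeR with no filter on low counts called 10. In that setting Cd14 differed by −0.91, beside −0.92 with the filter, while its edgeR adjusted p went from 0.480 to 3.30e-30. The cause of this move was not tested. Itgam, the integrin CD11b, had 83.5, 77.6, 67.4 and 53.8 CPM on day 1 at ZT16 against 101, 95.7, 163 and 104 CPM at ZT4. On day 3 it had 11.1, 7.08, 4.75 and 1.95 CPM at ZT16 against 10.8, 2.63, 9.29 and 10.4 CPM at ZT4, which overlap. Itgam shares 3450 of its 5024 exon bases with Gm49368 on the same strand, so its reads may be split. Csf1r, the receptor for the macrophage growth factor CSF1, differed by −0.44 ± 0.21 and Cd14, a co-receptor for lipopolysaccharide, by −0.92 ± 0.44 (edgeR adjusted p = 0.475 and 0.480). The count of 2 ranged from 0 to 10 when single libraries were left out and was 0 without the day 1, ZT4, replicate 3 library and without several others. Without that ZT4 library Itgam differed by −0.44, Csf1r by −0.37 and Cd14 by −0.78. Without day 1 ZT16 replicate 4 they differed by −0.50, −0.36 and −0.73. With both libraries left out, a set chosen after seeing the data, they differed by −0.37, −0.31 and −0.61. The library of day 3, ZT16, replicate 1, whose omission gave 10, held the highest sum of its day, 1140 CPM. Haemoglobin genes, a sign of blood, were lower too: Hbb-bs, Hba-a1 and Hba-a2 were lower on both days at an unadjusted p under 0.05, with summed levels of 8.08 to 17.5 CPM on day 1 at ZT16 and 17.2 to 37.2 CPM at ZT4. Hba-a1 and Hba-a2 are near-identical copies, so their split is uncertain.

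**Figure D3:**
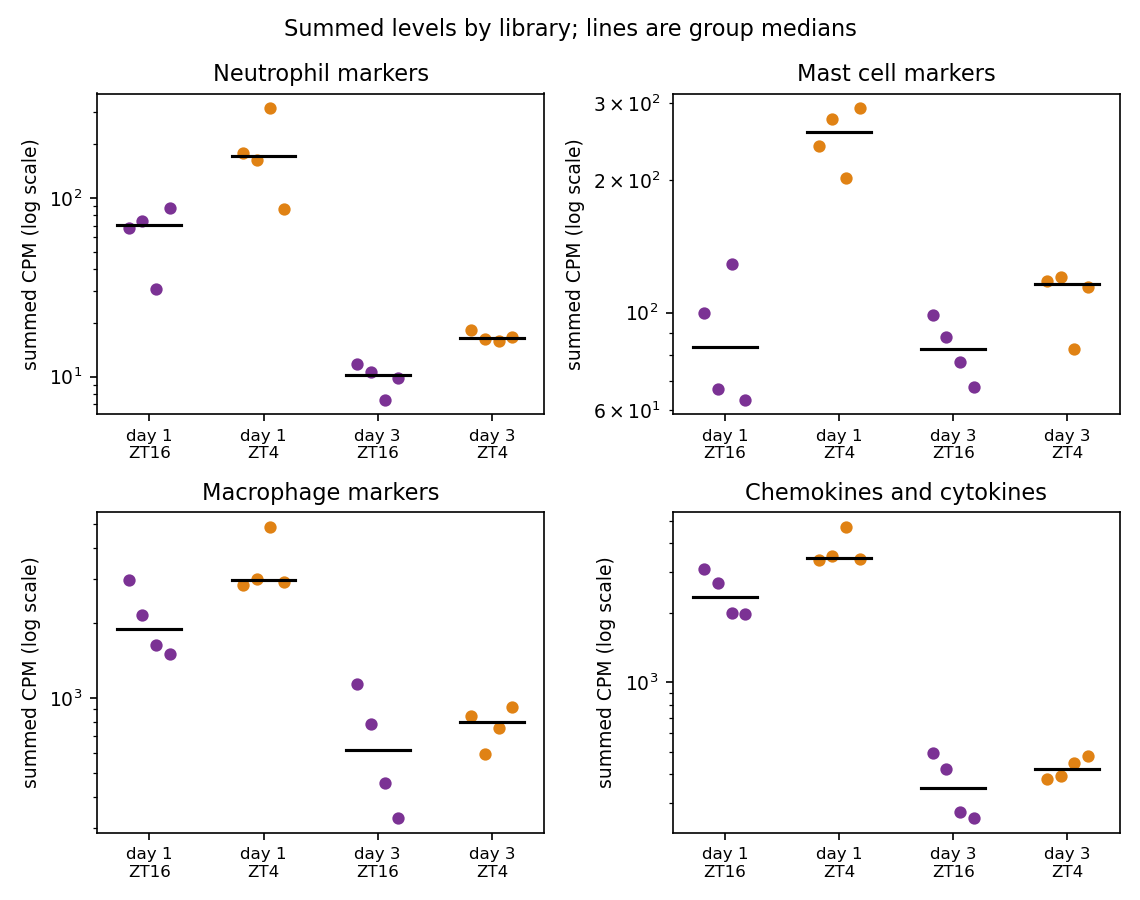
Summed CPM (log scale) of neutrophil, mast cell and macrophage markers and of chemokine and cytokine genes in each library, with group medians (lines). ZT16 libraries (purple) lie below ZT4 libraries (orange) without overlap for mast cell markers and chemokines on day 1. The same holds for neutrophil markers on day 3, where Mmp9 makes up most of the sum. The other panels and days overlap.

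Of 26 chemokine and cytokine genes 23 were tested, and all 23 were lower when pooled, 12 of them on both days. Of the 23, 9 had an unadjusted p under 0.05, against 6.06% of all genes tested that were lower at that level. None passed in edgeR or limma-voom, and DESeq2 called Cxcl5. The median log2 difference was −0.50, with −0.79 on day 1 and −0.15 on day 3, while in uninjured muscle it was 2.46, that is, higher at ZT16. The uninjured median rests on 3 libraries against 3. In these libraries Cxcl5 had 1.29, 0.286 and 0.142 CPM at ZT16 against 0.113, 0 and 0 CPM at ZT4. Cxcl5, which attracts neutrophils through CXCR2, had 1.95, 3.37, 1.43 and 2.10 CPM on day 3 at ZT16 against 8.29, 8.02, 6.79 and 5.77 CPM at ZT4, separate. On day 1 it had 19.3, 11.8, 9.24 and 21.5 CPM at ZT16 against 24.1, 29.3, 16.3 and 15.9 CPM at ZT4, overlapping, and the pooled difference was −0.96 ± 0.24 (edgeR adjusted p = 0.138). Ccl2, the main attractant of CCR2-positive monocytes, had 311, 267, 170 and 196 CPM on day 1 at ZT16 against 341, 354, 508 and 329 CPM at ZT4. On day 3 Ccl2 had 39.4, 22.99, 13.0 and 5.69 CPM at ZT16 against 26.6, 24.4, 28.03 and 33.0 CPM at ZT4. Day 1 was separate and day 3 was not, and Ccl2 differed by −0.58 ± 0.27 (edgeR adjusted p = 0.462). Ccl7, its neighbour in the same chemokine cluster, differed by −0.76 ± 0.33 (edgeR adjusted p = 0.431). Il1b, an interleukin made mainly by myeloid cells, differed by −1.51 ± 0.52 (edgeR adjusted p = 0.316), with 139, 58.9, 50.4 and 10.4 CPM on day 1 at ZT16 against 190, 139, 438 and 168 CPM at ZT4, which nearly touch. The 9 became 5 without day 1 ZT4 replicate 3 or day 3 ZT16 replicate 3, and 4 without day 1 ZT4 replicate 4 or day 1 ZT16 replicate 2 or 3. Without day 1 ZT4 replicate 3 the differences were −1.16 for Il1b, −0.48 for Ccl2, −0.65 for Ccl7 and −1.06 for Cxcl5. Without day 1 ZT16 replicate 4 they were −1.26, −0.53, −0.68 and −1.11, and without both libraries −0.94, −0.44, −0.59 and −1.20.

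**Figure D4:**
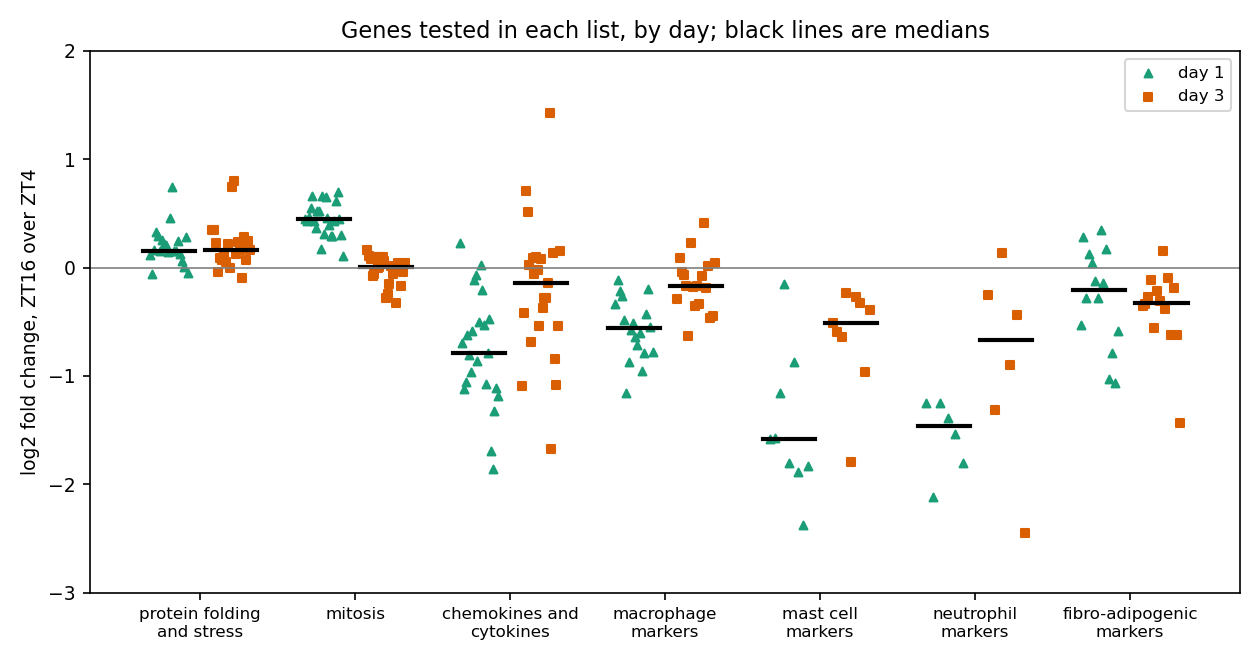
Log2 fold change, ZT16 over ZT4, of every tested gene of 7 lists on day 1 (triangles) and day 3 (squares), with list medians (black lines). The median of protein folding genes lies above 0 on both days (0.16 and 0.16), that of mitosis genes on day 1 (0.44, with 0.00 on day 3), and that of mast cell markers below 0 on both days (−1.59 and −0.51).

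Of the genes of protein folding and stress, all 20 were higher when pooled, 15 on both days, and 10 had an unadjusted p under 0.05, against 4.73% of all genes tested that were higher at that level. None passed after adjustment in edgeR or limma-voom, and DESeq2 called Hspa8 and Hspa1b. The median log2 difference was 0.18, with 0.16 on day 1 and 0.16 on day 3, and 0.92 in uninjured muscle. Sdf2l1, a cofactor of the chaperone BiP in the endoplasmic reticulum, had 102, 72.5, 79.2 and 92.5 CPM on day 1 at ZT16 against 71.3, 71.2, 70.6 and 72.2 CPM at ZT4. Day 3 libraries had 68.6, 74.4, 69.0 and 63.5 CPM at ZT16 against 61.5, 50.4, 59.0 and 61.8 CPM at ZT4. Its ranges were separate on both days, with a log2 difference of 0.26 ± 0.071 (edgeR adjusted p = 0.169). Hspa8, the constitutive cytosolic HSP70, differed by 0.19 ± 0.047 (edgeR adjusted p = 0.128), with means of 6477 ± 410 CPM at ZT16 and 5837 ± 345 CPM at ZT4 on day 1 (SD, n = 4 each). Hsp90aa1, the inducible cytosolic HSP90, differed by 0.21 ± 0.061 (edgeR adjusted p = 0.197). In uninjured muscle, ZT16 replicate 2 lay near the ZT4 level for Hspa8 and Hsp90aa1. There Hspa8 had 4576, 2231 and 7277 CPM at ZT16 against 2031, 2001 and 1953 CPM at ZT4. Hsp90aa1 had 413, 208 and 568 CPM at ZT16 against 175, 236 and 203 CPM at ZT4 in uninjured muscle. Hspa1b, heat-inducible HSP70, differed by 0.77 ± 0.21 (edgeR adjusted p = 0.219), but it shares nearly all its sequence with Hspa1a, so the reads may be split between them. With all 22 libraries in the fit, the 10 became 3.

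The endoplasmic reticulum members of this list include known targets of ATF6, which binds the ER stress response element (ERSE) together with NF-Y. The letters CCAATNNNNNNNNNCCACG were searched on both strands in RefSeq promoter windows (GRCm38.p6) of 250 bases before to 50 bases after each start, which 10154 of the tested genes had. Of these, 18 genes (0.177%) held the element, and 5 of them are among the 17 genes of the folding list with a window. Their stretches are shown because these list members hold the same element in the promoter; they and Hspa1b were chosen after their values were seen; each is written 5′ to 3′ on the strand of the gene, with the element in capitals (its reverse complement where it lies on the opposite strand).
Hspa5, chr2:34772005-34772063: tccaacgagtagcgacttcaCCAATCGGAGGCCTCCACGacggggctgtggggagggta
Dnajc3, chr14:118937807-118937865: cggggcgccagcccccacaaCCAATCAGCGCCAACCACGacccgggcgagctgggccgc
Creld2, chr15:88819500-88819558: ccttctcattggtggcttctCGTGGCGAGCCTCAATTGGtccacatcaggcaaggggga
Calr, chr8:84847055-84847113: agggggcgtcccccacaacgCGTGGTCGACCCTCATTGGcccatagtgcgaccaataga
Hsp90b1, first site, chr10:86705618-86705676: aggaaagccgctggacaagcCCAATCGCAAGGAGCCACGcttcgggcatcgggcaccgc
Hsp90b1, second site, chr10:86705513-86705571: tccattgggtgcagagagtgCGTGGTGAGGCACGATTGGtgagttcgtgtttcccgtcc

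Hspa5, the chaperone BiP, had 2628, 2289, 2522 and 2397 CPM on day 1 at ZT16 against 2102, 2183, 2226 and 2359 CPM at ZT4, and differed by 0.14 ± 0.039 over both days (unadjusted p = 0.00213). Dnajc3, a BiP co-chaperone, differed by 0.19 ± 0.057, and Creld2, a disulfide isomerase-like protein, by 0.19 ± 0.061. Calr, the lectin chaperone calreticulin, differed by −0.06 on day 1 and 0.35 on day 3, and Hsp90b1, the chaperone GRP94, by 0.15 on day 1 and −0.01 on day 3. Over all 18 genes with the element, 12 were higher and 6 lower when pooled, 4 were higher and 0 lower at an unadjusted p under 0.05, and the median log2 difference was 0.09. Among the 10136 genes without it the median was 0.00, with 503 higher and 656 lower at that level. The 4 higher genes with the element are Hspa5, Dnajc3 and Creld2, described above, and Hnrnpa3. Their count therefore restates the folding list in large part. A match of these letters is a description, not evidence of binding.

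Of 23 genes of mitosis, 22 were higher when pooled but 12 on both days, and 7 had an unadjusted p under 0.05, against 26.5% of all genes tested that were higher on both days and 4.73% that were higher at that level. The median log2 difference was 0.44 on day 1 and 0.00 on day 3. Aurkb, the kinase of the chromosomal passenger complex, differed by 0.43 on day 1 and 0.11 on day 3. Nusap1, a spindle protein, had 19.0, 33.6, 26.3 and 29.0 CPM on day 1 at ZT16 against 16.2, 19.5, 20.9 and 14.5 CPM at ZT4, and differed by 0.61 on day 1 and 0.05 on day 3 (interaction of day and hour, unadjusted p = 0.00672). Ccna2, cyclin A2, differed by 0.43 on day 1 and 0.09 on day 3. Bub1b, a spindle checkpoint kinase, was higher at ZT16 on day 1 alone by 0.66 ± 0.12 (edgeR adjusted p = 0.0428) and differed by −0.06 on day 3, so it is not shared by both days. The 7 became 13 without day 1 ZT16 replicate 1 and 11 without day 3 ZT4 replicate 3, 3 without day 1 ZT4 replicate 1, and 4 without day 1 ZT4 replicate 4 or any other day 1 ZT16 library. Sgo1 and Spc24, described above, are mitotic genes outside this list.

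Of the 14 clock genes driven through E-boxes, 3 were higher and 5 lower on both days, and 2 were higher and 2 lower at an unadjusted p under 0.05, against 4.73% and 6.06% of all genes tested. None passed after adjustment in edgeR or limma-voom, DESeq2 called Nr1d1 (adjusted p = 0.0252), and edgeR with no filter on low counts called Nr1d1, Nr1d2, Per1, Per2 and Bhlhe40. Without the filter 28591 genes were tested and differences hardly moved while p fell. Bhlhe40 went from −0.53 to −0.52, and its edgeR adjusted p from 0.627 to 1.01e-09. The cause was not tested. The median log2 difference of the 14 genes was −0.16, against 1.23 in uninjured muscle. Nr1d1, the repressor REV-ERB alpha, had 58.7, 55.5, 67.3 and 53.1 CPM on day 1 at ZT16 against 82.8, 72.4, 97.4 and 79.0 CPM at ZT4. On day 3 Nr1d1 had 28.02, 19.7, 19.0 and 13.9 CPM at ZT16 against 23.5, 27.4, 33.5 and 23.7 CPM at ZT4. It was separate on day 1 and not on day 3, and differed by −0.46 ± 0.11 after injury (edgeR adjusted p = 0.128) and by −0.95 in uninjured muscle (edgeR adjusted p = 0.000841). Nr1d1 shares 263 of its 3077 exon bases with Thra on the opposite strand, which was 0.24 ± 0.15 lower.

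The other clock genes did not share one pattern. Cry1, a repressor of CLOCK and ARNTL, differed by 0.26 ± 0.090 after injury (edgeR adjusted p = 0.303) and by 1.82 in uninjured muscle. Per2, its partner, differed by 0.76 on day 1, 0.10 on day 3 and 2.88 in uninjured muscle. Per1 and Cry2 had the opposite sign after injury, −0.50 ± 0.25 and −0.32 ± 0.16, to that in uninjured muscle, 1.02 and 0.91. After injury neither passed (Per1 edgeR adjusted p = 0.500). With a single library left out, the edgeR adjusted p was at least 0.331 for Per1 and 0.269 for Cry2. Without day 1 ZT16 replicate 4 they differed by −0.37 and −0.24. The E-box clock genes summed to 480.5 CPM in that library, against 787.2 CPM or more in the other day 1 libraries. Nr1d2, REV-ERB beta, differed by −0.03 on day 1 and −0.62 on day 3, and Dbp, a clock output factor, by −0.56 on day 1 and 0.34 on day 3. Their interactions of day and hour had unadjusted p of 0.00224 and 0.00336, and neither passed after adjustment. Bhlhe40, a repressor at E-boxes, differed by −0.53 ± 0.34 after injury and 2.18 in uninjured muscle, and its lowest day 1 value, 67.1 CPM, was in ZT16 replicate 4, against 216 CPM or more in the other day 1 libraries. Arntl, the E-box activator, differed by 0.14 ± 0.17 after injury and −2.05 in uninjured muscle (edgeR adjusted p = 0.000217). The difference between injured and uninjured muscle was not tested. The E-box CACGTG was found in the promoter windows of 1199 of 10154 genes (11.8%); 51 of these were higher and 103 lower at an unadjusted p under 0.05, beside 456 and 553 of the 8955 genes without it.

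**Figure D5:**
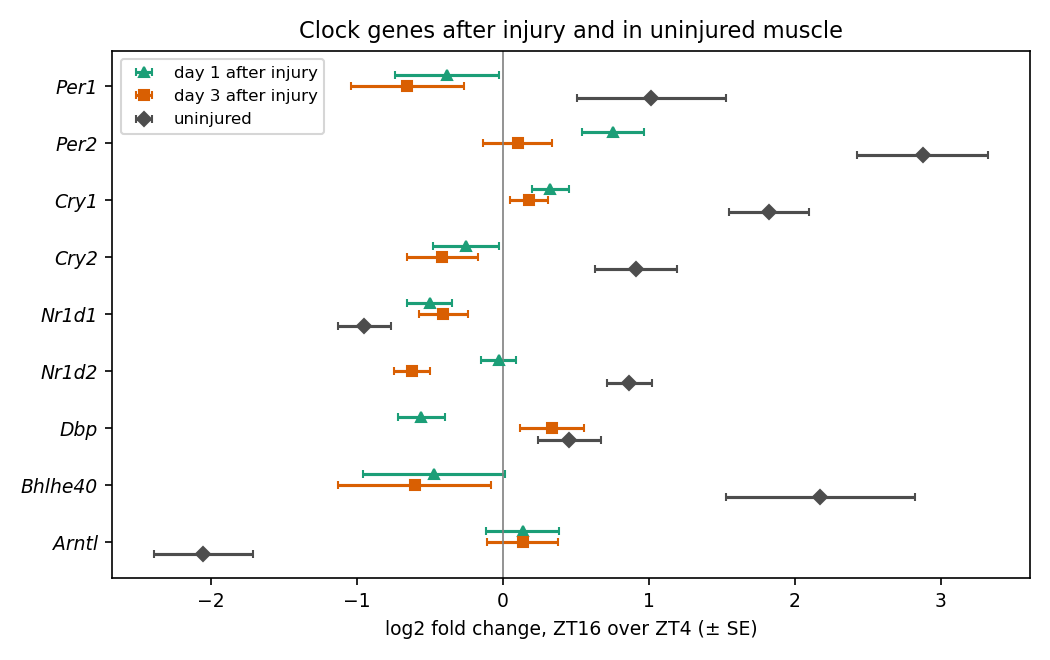
Log2 fold change, ZT16 over ZT4 (± SE), of 9 clock genes on day 1 and day 3 after injury and in uninjured muscle. After injury the values lie between −0.65 and 0.76, and in uninjured muscle between −2.05 and 2.88; Nr1d1 is below 0 in all 3 settings.

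Of 27 matrix genes 2 were higher and 12 lower on both days, with 3 lower at an unadjusted p under 0.05 and a median log2 difference of −0.14. Of all genes tested 26.5% were lower on both days and 6.06% lower at that p. None of the 27 passed in edgeR or limma-voom, and DESeq2 called Fn1. Fn1, fibronectin, had 275, 261, 183 and 177 CPM on day 1 at ZT16 against 322, 299.9, 404 and 381 CPM at ZT4. On day 3 it had 108, 90.8, 93.6 and 89.9 CPM at ZT16 against 109, 153, 113 and 193 CPM at ZT4. Its ranges were separate on both days, on day 3 by less than 1 CPM, and it differed by −0.61 ± 0.13 (edgeR adjusted p = 0.0914). Col1a1, the main fibrillar collagen, differed by −0.55 ± 0.22 (edgeR adjusted p = 0.390), with 298 to 403 CPM on day 3 at ZT16 and 354 to 874 CPM at ZT4. The 874 CPM were in day 3 ZT4 replicate 4, which also had the highest summed matrix genes (7208 CPM) of the 16 libraries and the highest summed fibro-adipogenic markers of its day (1020 CPM), and without it Col1a1 differed by −0.36. Mmp14, a membrane-bound collagenase, differed by −0.05 on day 1 and −0.53 on day 3. Of 14 markers of fibro-adipogenic cells, the mesenchymal cells that build muscle matrix, 1 was higher and 9 lower on both days, among them Pdgfra, which defines these cells, with −0.80 ± 0.34 (edgeR adjusted p = 0.400). The summed markers overlapped on both days, with 577 to 718 CPM at ZT16 and 610.0 to 1020 CPM at ZT4 on day 3. The part of these cells in the matrix values was not tested.

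Markers of mature myofibers, whose fragments can be carried into a sort, were lower on day 1: all 16 tested were lower when pooled and 8 on both days, with medians of −0.96 on day 1 and −0.08 on day 3. Myh4, the fast myosin heavy chain of adult fibers, differed by −1.29 ± 0.44 (edgeR adjusted p = 0.313), and its groups overlapped on both days. Hif1a, the oxygen-sensing transcription factor, and Vegfa, its target and a growth factor of blood vessels, were 0.22 ± 0.060 and 0.37 ± 0.11 lower (edgeR adjusted p = 0.169 and 0.187). The 16 hypoxia genes tested were nevertheless mixed, 4 higher and 7 lower on both days.

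The satellite cell and myogenic regulators showed no shared difference that passed. Pax7, the defining factor of satellite cells, had 77.4, 68.7, 57.1 and 41.0 CPM on day 1 at ZT16 against 58.8, 52.1, 49.1 and 54.8 CPM at ZT4, overlapping, and differed by 0.15 ± 0.11. Myf5, a marker of committed progenitors, differed by −0.20 ± 0.16. Myod1, the factor of activated myoblasts, differed by −0.02 on day 1 and 0.25 on day 3, where it had 812, 889, 946 and 881 CPM at ZT16 against 722, 739.8, 754 and 744 CPM at ZT4, separate (interaction, unadjusted p = 0.00565). Myog, which drives differentiation, differed by 1.19 ± 0.44 on day 1, at 7.53 to 25.9 CPM at ZT16 and 3.13 to 9.37 CPM at ZT4, and by 0.15 ± 0.30 on day 3, when its level was 1098 to 2201 CPM at ZT16 and 1367 to 1670 CPM at ZT4.

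Among 30 respiratory chain genes 24 were higher when pooled but only 4 on both days. Of 19 immediate early genes 1 was higher and 14 were lower on both days, with 2 at an unadjusted p under 0.05 and a median of −0.27, against 4.24 in uninjured muscle. That uninjured median rests on 3 libraries against 3 and is not given by library. The summed level of the immediate early genes was 3656 CPM in day 1 ZT16 replicate 4. It was 14480 to 18590 CPM in the other 3 ZT16 libraries and 13550 to 17390 CPM in the ZT4 libraries of that day. Day 1 ZT16 replicate 4 also had the lowest correlation with its own group (0.960). Its part in the immediate early counts was not tested. Without this library the pooled edgeR test called Banp, Kpna1, Hdc, Il1r2 and Rgs4. Of 20 NF-kB pathway genes 3 were higher and 13 lower on both days, beside 26.5% of all genes tested in each direction. Interferon response genes were even, 10 higher and 10 lower when pooled, and replication genes were 8 higher and 15 lower.

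Across all 13952 genes, 7395 (53%) had the same sign on both days, 3697 higher and 3698 lower. On day 1 alone 5 genes passed, 3 higher (0.0215%) and 2 lower (0.0143%), and 1327 genes (9.51%) had an unadjusted p under 0.05, 683 higher (4.9%) and 644 lower (4.62%). On day 3 alone no gene passed in edgeR (smallest adjusted p = 0.0974; 1427 genes, 10.2%, at an unadjusted p under 0.05, 665 higher, 4.77%, and 762 lower, 5.46%). No gene passed the interaction of day and hour (smallest adjusted p = 0.120; 1176 genes, 8.43%, at an unadjusted p under 0.05, 522 with a positive term, 3.74%, and 654 with a negative one, 4.69%), whereas DESeq2 called 23 and limma-voom 1. In uninjured muscle, with 3 libraries against 3, 1287 of 15084 genes were higher at ZT16 (8.53%) and 1376 lower (9.12%) at an adjusted p of 0.05, and the difference in counts from injured muscle was not tested.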

How the data were processed

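RNA of sorted muscle stem cells was sequenced in 22 libraries, of which 16 from injured muscle were tested here. The authors deposited expected counts and TPM per transcript, with trimming by Trimmomatic 0.33, alignment by STAR 2.5.2 and estimation by RSEM 1.3.3 on mm10, and DESeq2 is also named, per the submitters' processing notes. The annotation is not given in the sources used here. Expected counts were summed per gene and rounded to whole numbers. Genes with low counts were removed with filterByExpr by the 4 groups (minimum count 10, minimum total 15). edgeR 4.0.16 in R 4.3.3 (TMM, robust quasi-likelihood) tested injury hour with day as an additive term, each day alone and their interaction in a model of 4 group means, and the uninjured groups in a model of all 22 libraries. P-values were adjusted by Benjamini-Hochberg over all genes tested, with a threshold of 0.05. DESeq2 1.42.0 and limma 3.58.1 (voom, and limma-trend on log2(TPM + 1) from the deposited TPM) were alternatives, as were other filters, scalings, sets of libraries and single libraries left out. Named genes were the 12 higher and 12 lower with the smallest p among those with at least 5 CPM and the same sign on both days, up to 3 members of each list, clock genes and a few fixed regulators, and not every gene this allows is named. Hspa5, Dnajc3, Creld2, Calr, Hsp90b1 and Hspa1b lie outside this rule and were chosen after their values were seen. The members and lists were chosen with earlier results of these data known. The pooled test was also run on simulated counts with known changes, at an adjusted p of 0.05. It recovered 23.9% of 67 genes changed 1.25-fold, 50.7% of 67 changed 1.5-fold and 62.1% of 66 changed 2-fold. It also called 4 unchanged genes. Totals of 6302528 to 9751536 counts limit the precision of genes under a few CPM.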

Additional observations from a re-analysis of the deposited data

Results flagged for a closer look

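A value was singled out where, within a group of 4 libraries, the gap from the highest or lowest library to the nearest other was large against the range of the group (above Dixon's critical value). Of 304 groups looked at 20 met this, where chance gives about 1 in 20, and 12 of the 20 were in the library of day 1, ZT4, replicate 3.

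In that library the highest values of its group were Il1r2 at 44.5 CPM, Plin2 at 380.4 CPM, Myo1e at 93.9 CPM and Il1b at 437.9 CPM. Ccl7 at 782.1 CPM, Ccl2 at 507.7 CPM, Itgam at 162.6 CPM, Cd14 at 656.2 CPM and Bhlhe40 at 390.8 CPM were the highest too. Its summed macrophage markers (4861 CPM) and chemokines (4714 CPM) were likewise the highest, and its Myod1, at 1196 CPM, was the lowest. The part of admixed cells in these values was not tested.

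The other 8 were spread over 5 libraries. On day 3 at ZT16, replicate 1 was the highest for S100a9 (0.103 CPM, the other 3 libraries being at 0) and Tpsab1 (1.95 CPM). On day 1 at ZT16, replicate 1 was the highest for Mmp14 (71.3 CPM) and the lowest for Aurkb (102.0 CPM). Among the day 3 ZT4 libraries, replicate 3 was the highest for Angptl4 (237.9 CPM) and the lowest for the summed mast cell markers (82.8 CPM), replicate 2 was the highest for Snhg5 (51.1 CPM), and replicate 1 was the lowest for Per2 (7.35 CPM).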

How the results depend on the processing

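The pooled count of 2 genes was 93 with DESeq2 (92 with the same sign on both days), 25 with limma-voom (24), 477 with no filter on low counts (434), 4 with limma-trend on log2(TPM + 1) and 1 with all 22 libraries, and 0 to 24 with a single library left out. Without day 1 ZT4 replicate 3 and day 1 ZT16 replicate 4 together, chosen after seeing the data, it was 9. The interaction of day and hour, 0 genes, gave 23 with DESeq2, 1 with limma-voom, 175 with no filter, 7 without those 2 libraries and 0 to 7 with a single library left out.

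Members at an unadjusted p under 0.05 moved as follows. Mitosis, 7, gave 16 with no filter, 2 with limma-voom, 0 with all 22 libraries, 12 with 4 group means, 4 on the TPM scale and 3 to 13 with a library left out. Chemokines, 9, gave 17 with no filter, 15 with limma-voom, 3 with all 22 libraries, 5 with 4 group means, 4 without those 2 libraries and 4 to 13 with a library left out. Macrophage markers, 2, gave 14 with no filter, 4 with DESeq2, 9 with limma-voom, 0 with 4 group means, 9 on the TPM scale, 0 without those 2 libraries and 0 to 10 with a library left out. Protein folding genes, 10, gave 3 with all 22 libraries and 10 to 13 with a library left out. Mast cell markers, 6, gave 6 to 10 with a library left out. Neutrophil markers lower at ZT16, 6, were 10 with no filter. At an adjusted p of 0.05, edgeR with no filter called 10 macrophage, 6 mast cell and 5 neutrophil markers. It also called 11 chemokine and cytokine genes, 8 mitosis genes, 7 matrix genes and 4 protein folding genes. That setting moved 50 of the 68 named genes past the threshold, and Il1b from an edgeR adjusted p of 0.316 to 1.46e-52. The cause of these moves was not tested.

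Replicate numbers did not pair the libraries. Same-numbered ZT16 and ZT4 libraries correlated between −0.072 and 0.062 in their deviations from the group means, and 2 of 8 correlated best with their own number. With the replicate block 0 genes passed, and the interaction gave 1. None of the 68 named genes changed sign under the 26 alternatives.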
